A study of Mus musculus with 8 samples.

Results

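The contacts described here join the Kcnj2 domain to the Sox9 domain on mouse chromosome 11 (mm9). Members are all pairs of 10 kb bins with an end in 110940001 to 111380000, on the Kcnj2 side, and the other end in 111410001 to 112620000, on the Sox9 side, leaving out 112490001 to 112520000. This gave 44 bins on the Kcnj2 side, 118 bins on the Sox9 side and 5192 bin pairs, of 172578 pairs in the whole map (109010001 to 114880000). The ends of a pair lay 40 to 1670 kb apart. The sides are separated by 111380001 to 111410000, which holds the boundary position (the bin 111390001 to 111400000).

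Capture Hi-C enriches ligated DNA fragments of a chosen region, here 6 Mb around Sox9, and counts how often places are joined. The tissue was forelimb and hindlimb buds of E12.5 embryos, pooled from 3 to 8 embryos per genotype, from mutants in a G4 embryonic stem cell background. All 8 genotypes were homozygous mutants, and each had 1 library. The wildtype that the series describes was not analysed here. The labels ∆BorC1, ∆BorC1-2, ∆BorC1-4 and ∆CTCF name the 4 deletion libraries, which lack the boundary bin together with what the labels call C1, C1-2, C1-4 or CTCF. BorKnockIn carries a knocked-in boundary, and InvC∆Bor, InvC and InvIntra carry inversions, the first of these also without the boundary. By the bin coverage, the Sox9-side sequence ran in mirrored order in InvC∆Bor (r = 0.905 over 94 bins against the deletion libraries, and -0.0387 unmirrored), InvC (0.895 and -0.0385) and InvIntra (0.851 and 0.066). In the map of BorKnockIn the same sequence lay 20 kb nearer to Kcnj2 than in the maps of the deletion libraries. The latter maps still count the absent boundary bin in the distance, so a nearer place in the genome was not shown. By this shift BorKnockIn also lacks sequence at the original site. The position of the boundary bin held at most 8 contacts in any deletion library, 13844 for BorKnockIn, 12924 for InvC∆Bor, 21716 for InvC and 28151 for InvIntra. If the mirror of InvC and InvC∆Bor is extended to that position, it places there the sequence of 112500001 to 112510000 and not the boundary bin. What sequence lies at that position was not tested directly in the libraries with contacts there. InvIntra, whose label names an inversion and no change of the boundary, is the comparator below.

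A boundary between topologically associating domains is a place across which chromatin contacts are sparse, often at sites bound by the factor CTCF, where loops extruded by cohesin stop. Sox9 is the gene of a transcription factor that drives cartilage formation, and its domain holds a long gene desert with limb and other enhancers. Kcnj2, which encodes an inward rectifier potassium channel, lies in the neighbouring domain. In the RefSeq gene order (GRCm38) the only protein-coding model between both genes is Gm11677, with 5 long noncoding RNA models and 1 pseudogene, so the Sox9 side is read here by position and by sequence and not by gene.

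Total depth ran from 3056502 contacts for InvC∆Bor to 9045698 for ∆BorC1-4, a 2.96-fold range. Contacts between the sides numbered 137568 for ∆BorC1, 182495 for ∆BorC1-2, 267683 for ∆BorC1-4, 144086 for ∆CTCF, 125436 for BorKnockIn, 98041 for InvC∆Bor, 164229 for InvC and 109870 for InvIntra. At most 4 of the 5192 pairs had no contact, in InvC∆Bor. No test could be made, since no genotype had a second library. All intervals are 95% intervals that cover counting error only, and a block is called higher or lower past 1.5-fold.

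Contacts between the sides were mostly below the usual value in BorKnockIn and InvIntra and mostly above it in the other 6 libraries. Level is the balanced contact value (KR) of a bin pair over the library's mean at that distance, so 1 is the usual contact for the distance. Pairs above 1 made up 67.05% for ∆BorC1, 73.73% for ∆BorC1-2, 70.72% for ∆BorC1-4, 80.55% for ∆CTCF, 42.16% for BorKnockIn, 74.61% for InvC∆Bor, 79.33% for InvC and 30.74% for InvIntra. The median level was 0.922 for BorKnockIn and 0.693 for InvIntra, and at least 1.14 in each of the others. The mean level was 1.20 for ∆BorC1, 1.30 for ∆BorC1-2, 1.29 for ∆BorC1-4, 1.42 for ∆CTCF, 1.01 for BorKnockIn, 1.41 for InvC∆Bor, 1.505 for InvC and 0.855 for InvIntra. BorKnockIn thus lay between InvIntra and all other libraries. Relative to InvIntra, the mean was 1.40 times as high in ∆BorC1 (1.39 to 1.42), 1.66 for ∆CTCF (1.65 to 1.68), 1.18 for BorKnockIn (1.17 to 1.19), 1.65 for InvC∆Bor (1.64 to 1.67) and 1.76 for InvC (1.75 to 1.77). Rectangles of the same shape at 80 overlapping places in the unedited flanks had ratios to InvIntra of 0.853 to 0.985 for ∆BorC1, 0.899 to 0.985 for ∆CTCF, 0.952 to 1.11 for BorKnockIn, 0.927 to 1.01 for InvC∆Bor and 0.916 to 1.08 for InvC. Each mean ratio in the rectangle therefore lay above every flank ratio of its own library.

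The rectangle was cut into 60 blocks of 100 kb by 100 kb, 5 along the Kcnj2 side and 12 along the Sox9 side, numbered outward from the boundary position on both sides. Blocks called higher than in InvIntra numbered 34 for ∆BorC1, 37 for ∆BorC1-2, 38 for ∆BorC1-4, 43 for ∆CTCF, 12 for BorKnockIn, 47 for InvC∆Bor and 54 for InvC. Over 792 such blocks of the whole map, the rectangle included, the called share was 7.7% for ∆BorC1, 9.09% for ∆BorC1-2, 7.83% for ∆BorC1-4, 9.72% for ∆CTCF, 4.55% for BorKnockIn, 10.9% for InvC∆Bor and 14% for InvC. None of the 368 blocks within the flanks was called higher in any library, and at most 6, in ∆CTCF, were called lower. Within the rectangle the blocks called higher were not spread evenly. In the Sox9-side blocks 1 to 6, 30 of 30 blocks were called in each deletion library, in InvC∆Bor and in InvC, and 12 of 30 in BorKnockIn. In the Sox9-side blocks 10 to 12 the called blocks were 0 of 15 for ∆BorC1, ∆BorC1-2, ∆BorC1-4 and BorKnockIn, 1 for ∆CTCF, 4 for InvC∆Bor and 9 for InvC. No block of the rectangle was called lower in any library, where the whole map had 3.41% (∆BorC1), 3.28% (∆BorC1-2), 3.28% (∆BorC1-4), 6.69% (∆CTCF), 1.64% (BorKnockIn), 3.54% (InvC∆Bor) and 12.4% (InvC). The blocks with a ratio under 1, from 2 in InvC∆Bor to 9 in BorKnockIn, all lay in Sox9-side blocks 10 to 12.

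**Figure D1:**
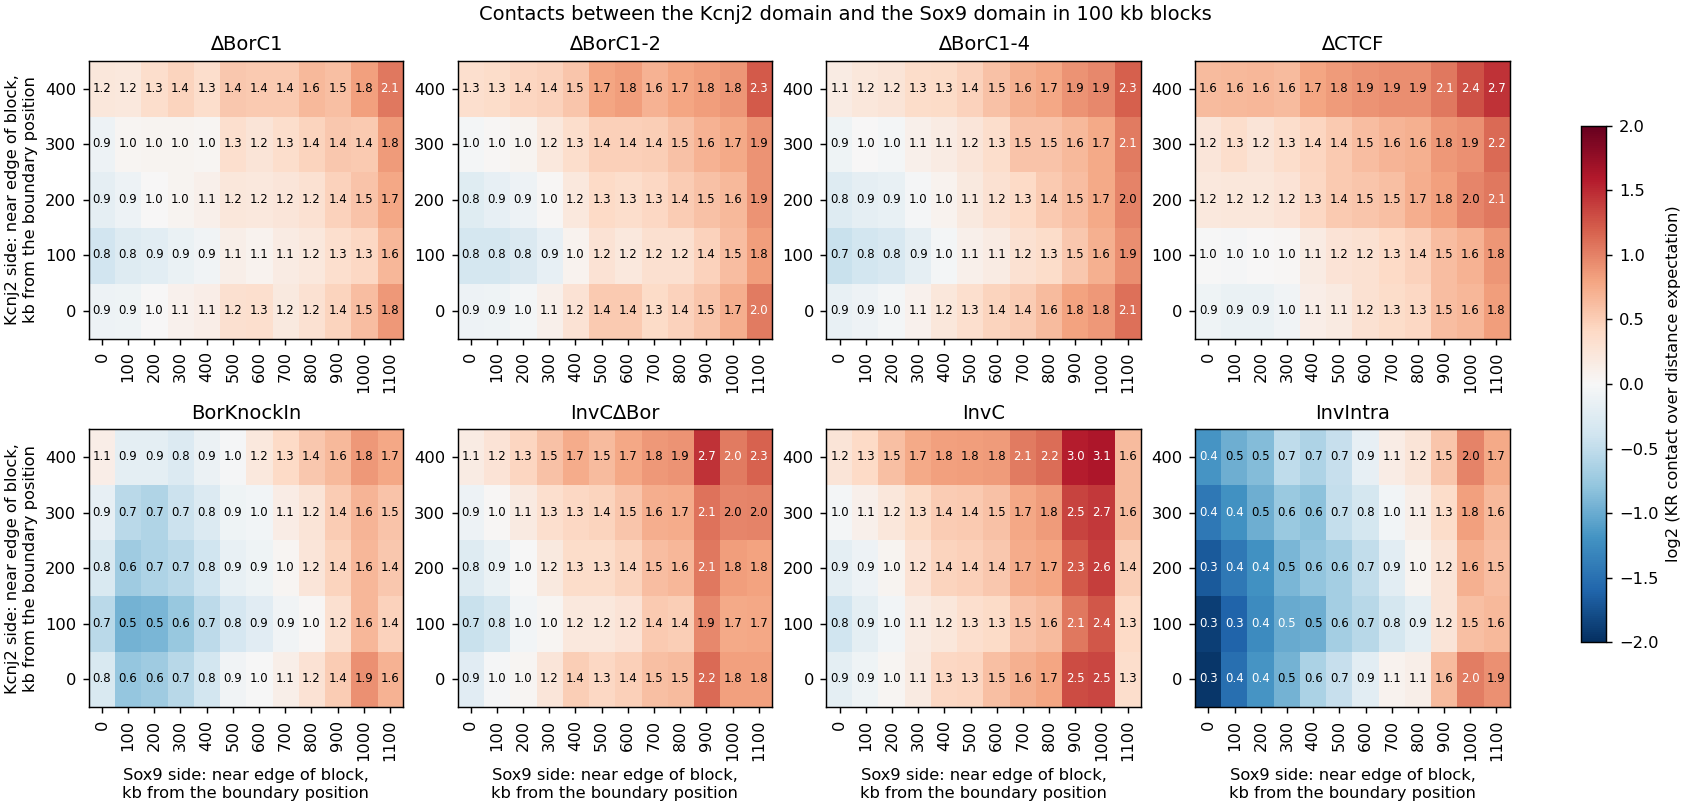
Level of each 100 kb block (number and colour, colour on a log2 scale) in the 8 libraries, by the distance of the block's near edge from the boundary position on the Sox9 side (x, kb) and on the Kcnj2 side (y, kb). InvIntra runs from 0.260 in the block at the boundary to 2.03 near the Sox9 end, while the deletion libraries start near 0.9.

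The level itself was higher at the Sox9 end than next to the boundary position in every library, and InvIntra differed by how low it started. Along the Sox9 side the level of InvIntra was 0.317 in block 1, 0.678 in block 6, 1.76 in block 11 and 1.64 in block 12. ∆BorC1 had 0.904, 1.21, 1.47 and 1.76 in the same blocks, and ∆CTCF had 1.11, 1.35, 1.83 and 2.04. The level of BorKnockIn was 0.829 in block 1 and 0.625 in block 2, the only fall between these blocks in any library, and reached 1.68 in block 11. Toward the Sox9 end the ratio to InvIntra accordingly shrank. It was 2.85 in block 1 of ∆BorC1 (2.79 to 2.92), 1.79 in block 6, 0.835 in block 11 (0.809 to 0.863) and 1.07 in block 12. In ∆CTCF it was 3.50 in block 1 (3.42 to 3.58), 1.99 in block 6, 1.03 in block 11 and 1.24 in block 12. In BorKnockIn the ratio was 2.61 in block 1, 1.63 in block 2 and 1.39 in block 3. In block 1 the ratio of BorKnockIn to InvIntra was thus slightly below those of ∆BorC1, ∆BorC1-2 and ∆BorC1-4 (2.77 to 2.89) and well below that of ∆CTCF (3.50). It was further below those of all 4 deletion libraries in blocks 2 (2.40 to 2.95) and 3 (2.05 to 2.44). In block 10 it was 1.04 for both BorKnockIn and ∆BorC1.

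**Figure D2:**
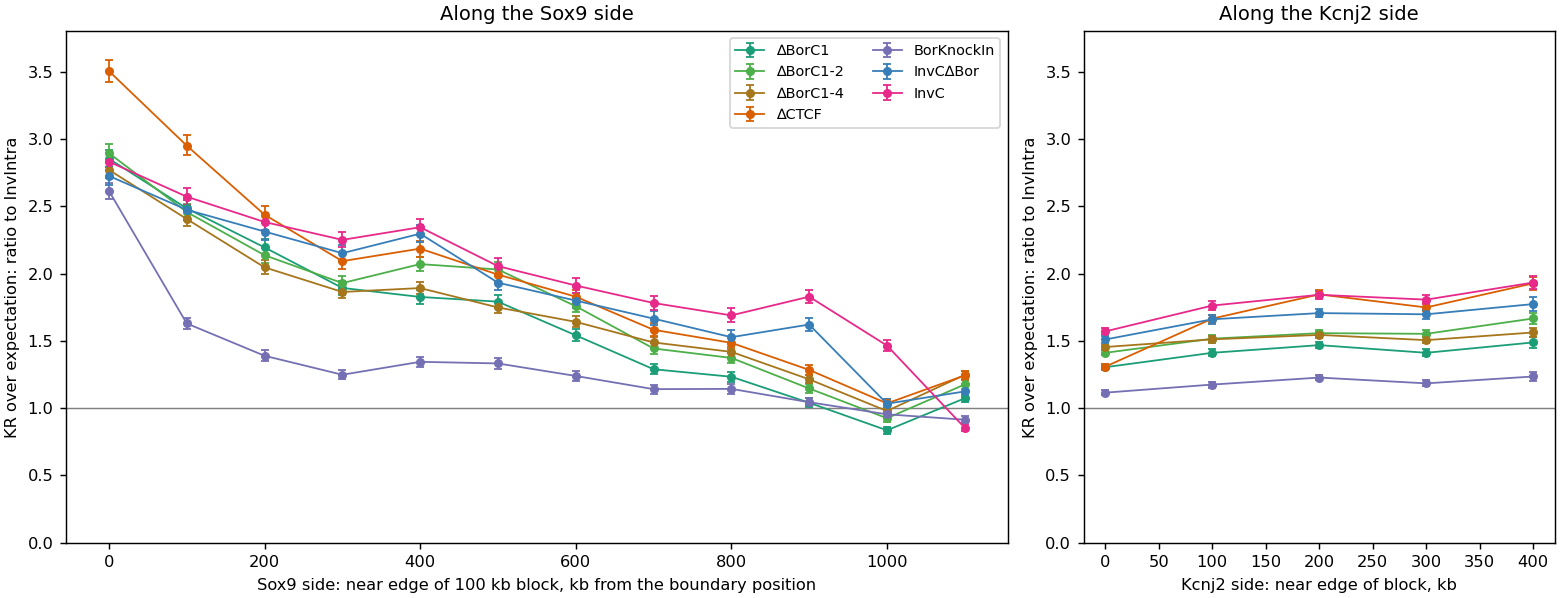
Ratio of the mean level to that of InvIntra along the Sox9 side (left) and the Kcnj2 side (right), by the distance of each block's near edge from the boundary position (kb), with bars for the counting interval. Along the Sox9 side the ratio of ∆BorC1 runs from 2.85 to 1.07, while along the Kcnj2 side it stays between 1.30 and 1.49.

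The position along the Sox9 side accounted for most of the differences between blocks. Taking log2 levels as a sum of a Sox9-side and a Kcnj2-side term, the Sox9 side held 75.3% of the variance over the 60 blocks in ∆BorC1, 75.1% for ∆BorC1-2, 85.7% for ∆BorC1-4, 59.7% for ∆CTCF, 88.3% for BorKnockIn, 84.8% for InvC∆Bor, 85.8% for InvC and 95.2% for InvIntra. What neither term held was 1.14% to 2.54%. The rectangle was thus close to a product of 2 profiles, with no block far off both. The largest departure was in InvIntra, at the block where both sides meet the boundary, with a difference of -0.365 on the log2 scale from what the profiles give.

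∆CTCF differed from the other deletion libraries along the Kcnj2 side, which held 39.2% of its variance. Its level was 1.22 in the Kcnj2-side block 1, next to the boundary position, and 1.88 in block 5, next to Kcnj2, while ∆BorC1 had 1.22 and 1.45. Set against ∆BorC1, the level of ∆CTCF was 1.00 in block 1, 1.18 in block 2, 1.26 in block 3, 1.24 in block 4 and 1.29 in block 5. The 2 libraries were thus level next to the boundary position, and ∆CTCF was higher along the remaining Kcnj2 side. ∆BorC1-2 over ∆BorC1 ran from 1.06 to 1.12 and ∆BorC1-4 over ∆BorC1 from 1.05 to 1.11, with no such step after block 1. These ratios set single libraries against each other.

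The 4 corner blocks were examined singly. The corner where both sides meet the boundary had a level of 0.933 for ∆BorC1 (9078 contacts), 0.929 for ∆BorC1-2 (11735), 0.904 for ∆BorC1-4 (17247), 0.945 for ∆CTCF (8887), 0.811 for BorKnockIn (9392), 0.854 for InvC∆Bor (5236), 0.873 for InvC (8878) and 0.260 for InvIntra (3503). InvIntra was low and all others, BorKnockIn included, lay within 0.811 to 0.945. The ratio to InvIntra was 3.59 for ∆BorC1 (3.45 to 3.73), 3.12 for BorKnockIn (3.00 to 3.24), 3.28 for InvC∆Bor (3.15 to 3.43) and 3.36 for InvC (3.23 to 3.49). Maps of the deletion libraries still count the absent boundary bin in the distance. With 20 kb taken off that distance their median ratio was 3.03 instead of 3.58, so the order of the deletion libraries and the others in this corner depends on it.

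The corner between the Kcnj2 end and the boundary was also low in InvIntra alone. There the level was 1.17 for ∆BorC1, 1.26 for ∆BorC1-2, 1.12 for ∆BorC1-4, 1.55 for ∆CTCF, 1.10 for BorKnockIn, 1.11 for InvC∆Bor, 1.19 for InvC and 0.444 for InvIntra. The ratio to InvIntra was highest in ∆CTCF, 3.50 (3.24 to 3.78), and 2.48 to 2.84 in the others.

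The corners at the Sox9 end were high in InvIntra too. Between the boundary and the Sox9 end the level was 1.82 for ∆BorC1, 2.05 for ∆BorC1-2, 2.14 for ∆BorC1-4, 1.78 for ∆CTCF, 1.61 for BorKnockIn, 1.77 for InvC∆Bor, 1.28 for InvC and 1.88 for InvIntra. InvC was the low library here, 0.679 times InvIntra (0.638 to 0.724). That value lay inside the range of single 100 kb blocks within the flanks for InvC over InvIntra (0.602 to 1.24). The far corner, between the Kcnj2 end and the Sox9 end, had a level of 2.09 for ∆BorC1, 2.33 for ∆BorC1-2, 2.30 for ∆BorC1-4, 2.73 for ∆CTCF, 1.71 for BorKnockIn, 2.27 for InvC∆Bor, 1.55 for InvC and 1.70 for InvIntra. Ratios to InvIntra were 1.23 for ∆BorC1 (1.12 to 1.35), 1.37 for ∆BorC1-2, 1.35 for ∆BorC1-4, 1.61 for ∆CTCF (1.47 to 1.76) and 1.34 for InvC∆Bor (1.21 to 1.49). The far corner of BorKnockIn (1.01, interval 0.914 to 1.11) and of InvC (0.914, interval 0.828 to 1.01) could not be told from InvIntra at this depth. Contacts in this corner were few, from 597 for InvC∆Bor to 1739 for ∆BorC1-4.

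**Figure D3:**
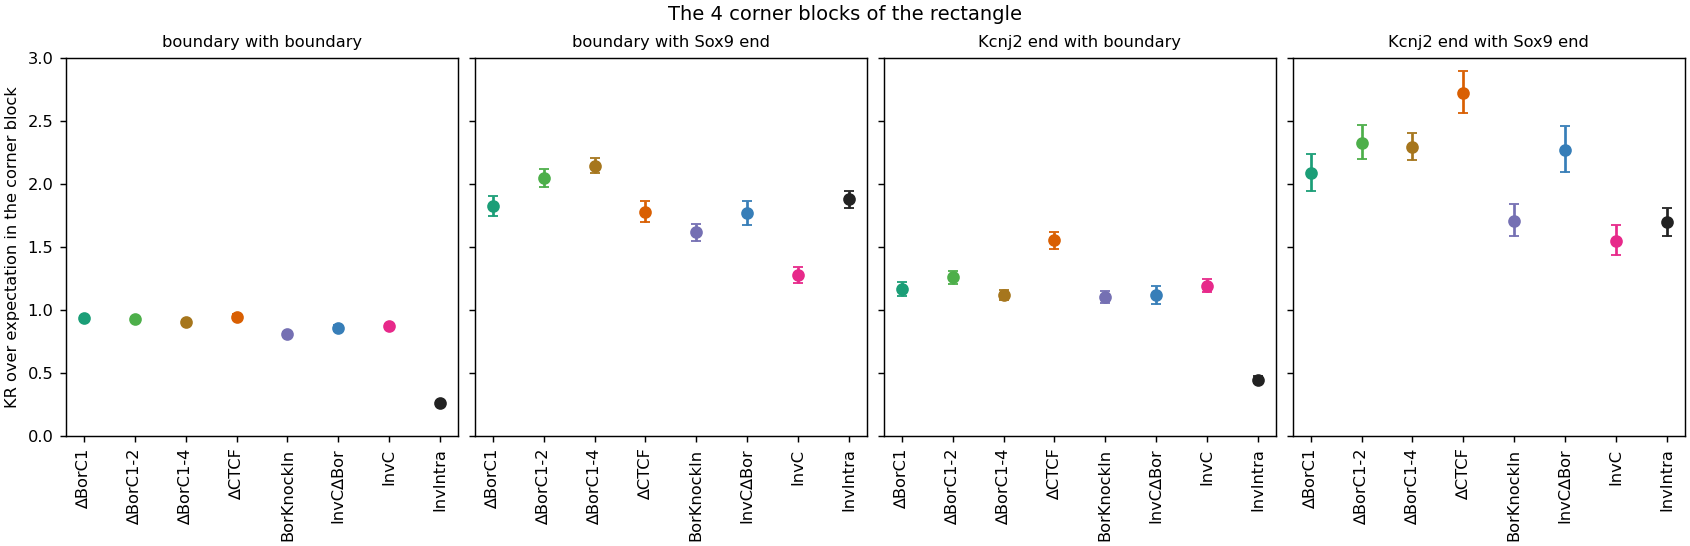
Level in the 4 corner blocks in the 8 libraries, with counting intervals as bars. InvIntra stands apart in both corners at the boundary (0.260 and 0.444), and InvC and BorKnockIn are lowest among the others in both corners at the Sox9 end.

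In numbers of contacts, the largest part of the excess over InvIntra lay at middle distances. The excess is the number of raw contacts above what the library would hold at the level of InvIntra, taken pair by pair with raw counts over their mean at each distance. Raw counts keep the capture coverage, and at the same position InvIntra holds other sequence than the libraries with the uninverted order. The part of coverage in these shares was not tested. Pairs under 300 kb apart, 6.76% of all pairs, held 22.4% of the excess in ∆BorC1, 20.5% for ∆BorC1-2, 20.7% for ∆BorC1-4, 19.4% for ∆CTCF, 30% for BorKnockIn, 17.5% for InvC∆Bor and 17% for InvC. Pairs 300 to 800 kb apart, 40.3% of all, held 53.6% for ∆BorC1, 49.8% for ∆BorC1-2, 47% for ∆BorC1-4, 49.1% for ∆CTCF, 43.4% for BorKnockIn, 51.4% for InvC∆Bor and 50.8% for InvC. Pairs over 800 kb apart, 53% of all, held 24% for ∆BorC1, 29.8% for ∆BorC1-2, 32.3% for ∆BorC1-4, 31.5% for ∆CTCF, 26.6% for BorKnockIn, 31% for InvC∆Bor and 32.2% for InvC. The block at the boundary had the highest ratio in every library but ∆CTCF, where Kcnj2-side block 3 with Sox9-side block 1 stood at 3.70 (3.52 to 3.89) beside 3.63 (3.49 to 3.78) at the boundary. Yet pairs under 300 kb held the smallest part of the excess in every library except BorKnockIn.

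Single Sox9-side bins that stood above their neighbours form stripes along the Kcnj2 side. The stripe value is the mean level of a bin with the whole Kcnj2 side over the mean of its 5 neighbours on either side. In ∆BorC1, ∆BorC1-2 and ∆BorC1-4 the highest stripe value was at 112.61 Mb, the last bin of the Sox9 side, with 1.21 (1.14 to 1.29), 1.13 (1.07 to 1.20) and 1.14 (1.09 to 1.18). ∆CTCF had 1.15 at 111.81 Mb and 1.14 at 112.61 Mb. That edge bin has neighbours on a single side within the rectangle, so a level that climbs outward raises its value. The level also climbed past the edge. It was 2.21 for ∆BorC1, 2.28 for ∆BorC1-2, 2.39 for ∆BorC1-4 and 2.42 for ∆CTCF at 112.61 Mb, and 2.53, 2.97, 2.93 and 3.23 in the bin that starts at 112640001, where Sox9 lies. In BorKnockIn the level was 1.60 at 112.61 Mb and 1.20 in that bin. InvC∆Bor had 2.14 and 2.37, InvC 1.46 and 1.59, and InvIntra 1.64 and 1.40. Only BorKnockIn and InvIntra had a lower level at the Sox9 bin than at the last bin of the rectangle. The Sox9 bin was not shifted for BorKnockIn, whose right side lay 10 kb off the others.

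The highest stripes of BorKnockIn and of the inverted libraries lay inside the rectangle, away from its outer edge. BorKnockIn was highest at 112.48 Mb, the last bin before the stretch left out, with a stripe value of 1.23 (1.17 to 1.30) and a level of 1.96. Its next were 111.46 Mb (1.17) and 111.47 Mb (1.14), which hold the sequence of 111.48 and 111.49 Mb. InvC∆Bor was highest at 112.38 Mb, with a stripe value of 1.33 (1.254 to 1.41) and a level of 2.77. InvC was highest in the same bin, with 1.26 (1.20 to 1.32) and a level of 3.15, and next at 112.48 Mb with 1.24. The neighbours of 112.48 Mb toward Sox9 lie beyond the stretch left out, so a level that falls across it raises the value. From Sox9-side block 11 to block 12 the level fell from 2.59 to 1.40 in InvC and from 1.68 to 1.502 in BorKnockIn. The part of this fall in the stripe values at 112.48 Mb was not tested. InvIntra was highest at 112.42 Mb, with 1.26 (1.19 to 1.34) and a level of 2.06. By the mirror these bins hold the sequence that the deletion libraries have at 111.51 Mb (InvC∆Bor and InvC) and 111.49 Mb (InvIntra), within 2 bins of each other. The mirror is fitted on 10 kb bins. At 111.51 Mb the stripe value was 1.02 for ∆BorC1, 1.01 for ∆BorC1-2, 1.01 for ∆BorC1-4 and 1.07 for ∆CTCF, with levels of 0.918 to 1.20. At 111.49 Mb it was 1.11 for ∆BorC1 (1.06 to 1.17, the third highest of its Sox9-side bins), 1.08 for ∆BorC1-2, 1.06 for ∆BorC1-4 and 1.04 for ∆CTCF. Stripe values at both sequences were thus lower in the deletion libraries, where the sequences lie about 100 kb from the boundary position, than in the inverted libraries that were highest there. The sequences were picked as the highest bins of those inverted libraries, so lower values in other libraries say little. At 111.49 Mb InvC∆Bor had 1.05 and InvC 1.11, and at 111.51 Mb InvIntra had 1.06. These values lay near those of the deletion libraries.

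BorKnockIn changed level at the sequence of 111.51 Mb. Over the 8 bins that end before 111.49 Mb of its map its mean level was 0.880, and over the 8 bins from 111.49 Mb on it was 0.613, a ratio of 0.696 (0.679 to 0.713). At the same map position the ratio was 1.06 for ∆BorC1, 1.03 for ∆BorC1-2, 1.06 for ∆BorC1-4, 1.03 for ∆CTCF, 1.07 for InvC∆Bor, 1.09 for InvC and 1.19 for InvIntra. In the order of BorKnockIn, 111.49 Mb holds the sequence of 111.51 Mb. The step was picked after the values were seen. Set against BorKnockIn block by block of the same sequence, ∆BorC1 stood at 1.03 (1.01 to 1.05) in the sequence block 1, before the step, and at 1.53 (1.498 to 1.57) in block 2, 1.61 in block 3, 1.39 in block 5, 1.15 in block 8 and 0.934 in block 11. ∆BorC1-4 over BorKnockIn was 0.997 (0.981 to 1.01) in block 1 and 1.49 in block 2, and ∆CTCF over BorKnockIn was 1.26 and 1.82. The deletion libraries and BorKnockIn, which share the order of this sequence, therefore differed mostly beyond the step and by less toward the Sox9 end.

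**Figure D4:**
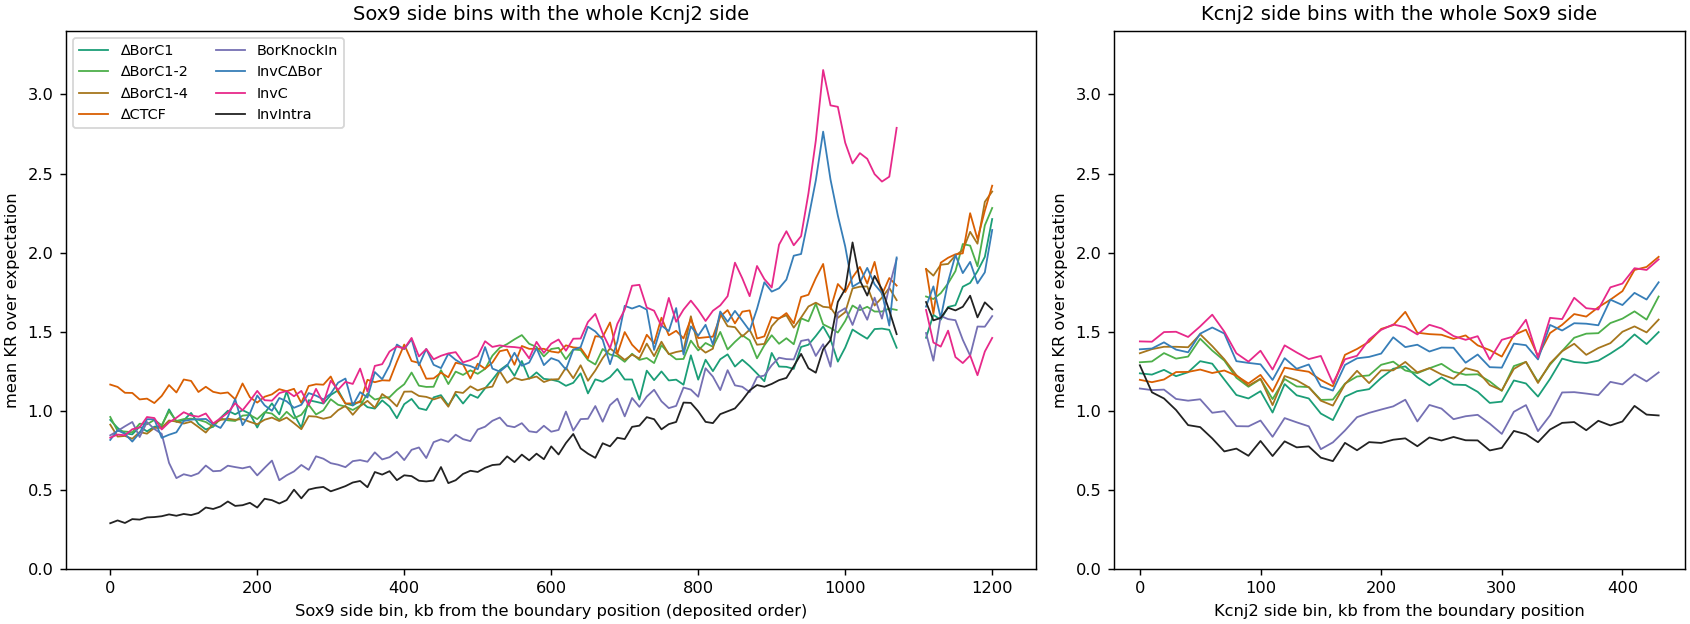
Mean level of each 10 kb bin with the whole other side in the 8 libraries, by distance from the boundary position (kb), for Sox9-side bins (left) and Kcnj2-side bins (right). The gap near 1100 kb is the stretch left out. InvC∆Bor and InvC share a peak (2.77 and 3.15), and BorKnockIn falls to 0.696 times its level at its step.

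On the Kcnj2 side, where the stripe value is taken from contacts with the whole Sox9 side, stripe values were at most 1.13 in every library except InvIntra. The bin at 111.31 or 111.32 Mb was highest in ∆BorC1 (1.10, interval 1.06 to 1.15), ∆BorC1-2 (1.13), ∆BorC1-4 (1.12), InvC∆Bor (1.12) and InvC (1.13). It was not among the 3 highest bins of ∆CTCF, whose highest were 111.15 Mb (1.11) and 110.94 Mb (1.11), nor of BorKnockIn, whose highest was 111.15 Mb (1.10). In InvIntra the highest bin was 111.37 Mb, the last bin before the boundary position and so also with neighbours on a single side, with 1.29 (1.253 to 1.32) and a level of 1.29. The bin nearest to Kcnj2, at 110.94 Mb, had levels of 1.497 for ∆BorC1, 1.72 for ∆BorC1-2, 1.58 for ∆BorC1-4, 1.97 for ∆CTCF, 1.24 for BorKnockIn, 1.81 for InvC∆Bor, 1.96 for InvC and 0.970 for InvIntra.

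Inversions allow position and sequence to be set against each other. Over 55 blocks that both orders share, levels of the inverted libraries correlated with the median of the deletion libraries at r = 0.947 by position and -0.568 by sequence in InvC∆Bor, 0.957 and -0.581 in InvC, and 0.914 and -0.719 in InvIntra. The block pattern thus followed the position on the Sox9 side. Blocks share their libraries and neighbours, so these correlations describe the maps only. At the scale of single bins it was the other way round. Stripe values of the Sox9-side bins correlated with the deletion median at r = -0.00319 by position and 0.456 by sequence in InvC∆Bor (108 bins), at -0.0843 and 0.505 in InvC (108 bins), at 0.00854 and 0.271 in InvIntra (106 bins) and at -0.136 and 0.399 in BorKnockIn (106 bins). Deletion libraries correlated among themselves at 0.422 to 0.624. Bins of the same sequence share capture coverage, and with raw counts, where coverage is not balanced out, the values by sequence were 0.876 in InvC∆Bor, 0.869 in InvC and 0.791 in InvIntra. The part of coverage in the balanced values was not tested.

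Read by sequence, the comparison with InvIntra turned round for the libraries with the uninverted order. In the sequence block 1, which lies next to the boundary position in the deletion libraries and near the Sox9 end in InvIntra, the ratio to InvIntra was 0.512 for ∆BorC1, 0.520 for ∆BorC1-2, 0.497 for ∆BorC1-4, 0.629 for ∆CTCF and 0.499 for BorKnockIn. In the sequence block 11 it was 4.58 for ∆BorC1, 5.07 for ∆BorC1-2, 5.37 for ∆BorC1-4, 5.67 for ∆CTCF and 4.90 for BorKnockIn. For the libraries that share the mirrored order the direction stayed, with 1.09 and 2.69 in InvC∆Bor and 1.504 and 2.75 in InvC. Along the Sox9 side, the statement that the ratio is highest next to the boundary position therefore holds by position in all 7 libraries. By sequence it holds for InvC∆Bor and InvC, since sequence block 11 lies next to the boundary position there. Taken over the whole Sox9 side, the ratio along the Kcnj2 side was lowest next to the boundary position in each library. In ∆BorC1 it was 1.30 in block 1 and 1.49 in block 5. Within Sox9-side block 1 alone it was highest next to the boundary position in every library but ∆CTCF. There ∆BorC1 had 3.59 in Kcnj2-side block 1 and 2.63 in block 5, and within Sox9-side block 11 it had 0.752 and 0.891. The absent boundary and the order of the sequence cannot be told apart between the deletion libraries and InvIntra.

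**Figure D5:**
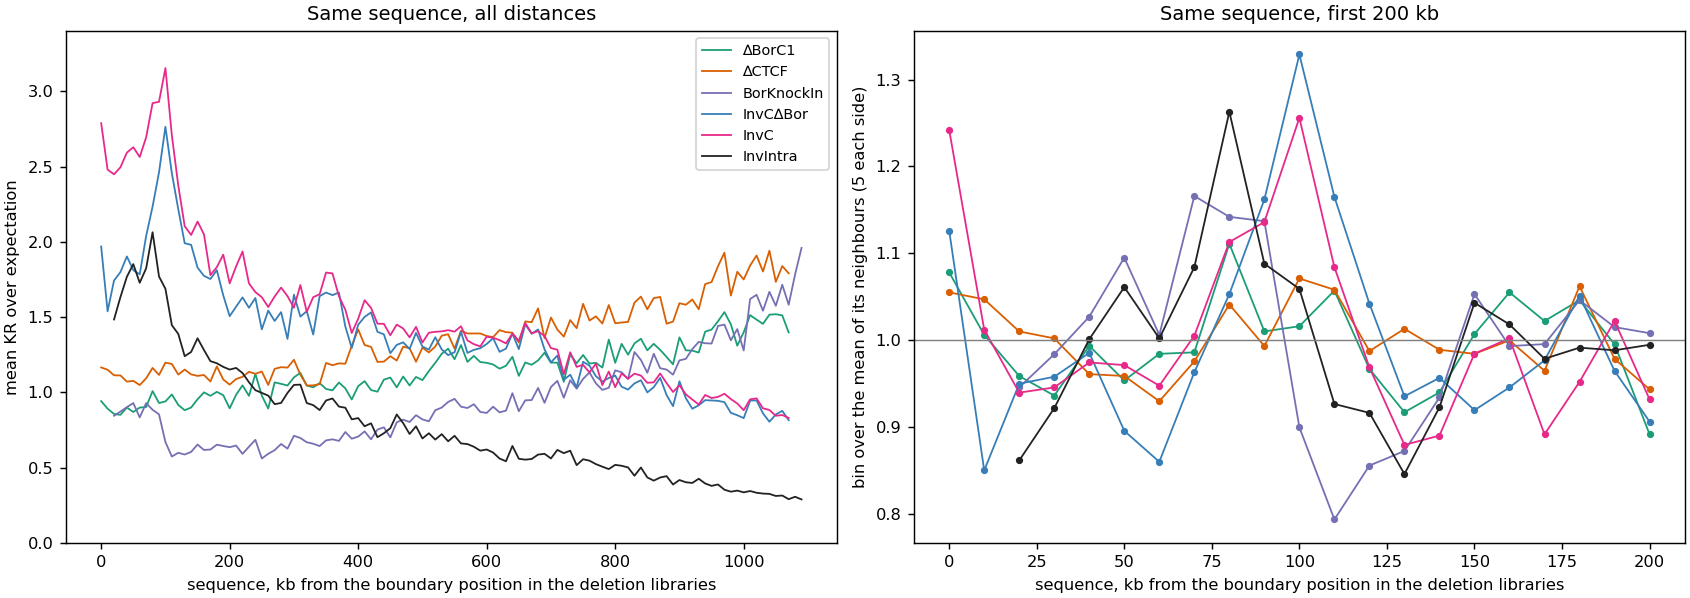
Mean level (left) and stripe value (right, first 200 kb) of Sox9-side bins matched by sequence, by the distance of the sequence from the boundary position in the deletion libraries (kb). Levels of InvC∆Bor, InvC and InvIntra fall along this axis where those of ∆BorC1 and ∆CTCF climb, and the stripe values of InvC∆Bor and InvC peak at 100 kb (1.33 and 1.26), near the drop of BorKnockIn.

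InvC∆Bor and InvC share the mirrored order, and InvC∆Bor lacks the boundary that the mirror places in InvC at 112500001 to 112510000, within the stretch left out. Over the whole rectangle the level of InvC∆Bor was 0.940 times that of InvC (0.932 to 0.947), inside the range of the flank rectangles for this pair (0.934 to 1.05). The libraries parted most at the Sox9 end. Along Sox9-side blocks 1 to 9 the ratio of InvC∆Bor to InvC was 0.904 to 0.979. It was 0.887 in block 10 and 0.705 (0.682 to 0.729) in block 11, with levels of 1.82 in InvC∆Bor and 2.59 in InvC. In block 12, beyond the left-out stretch, it was 1.32 (1.27 to 1.36), with levels of 1.85 in InvC∆Bor and 1.40 in InvC. Contacts of the Kcnj2 side were thus lower just before the boundary site of InvC and higher just beyond it in the library without the boundary. Single 100 kb blocks within the flanks had ratios of 0.792 to 1.47 for this pair. Among single blocks of the rectangle the highest ratio was 1.465, Kcnj2-side block 5 with Sox9-side block 12, at the upper end of that range. The lowest, 0.667 in Sox9-side block 11, lay below the range. The values of 1.32 and 0.705 are means over the whole Kcnj2 side, for which no flank range was made. Of 60 blocks, 1 was called lower (background 2.02%), Kcnj2-side block 5 with Sox9-side block 11 at 0.667 (0.599 to 0.741), and 0 were called higher (background 3.79%). The stripe at 112.38 Mb was present in both.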

How the data were processed

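Each of the 8 libraries had a raw and a balanced map (16 deposited maps) in bins of 10 kb. The authors deposited raw maps as counts, the number of read pairs for each pair of bins, and balanced maps (Knight-Ruiz, KR) as a signal derived from those counts. The submitters' processing notes name mm9 as the build, Juicer, and Bowtie2 in version 2.2.6. How reads were filtered is not stated in the sources used here.

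Levels are KR values over the library's mean at each distance over the whole map, of which the rectangle makes at most 9.24% of the pairs. Ratio intervals are log-normal, contact intervals exact Poisson, both from raw counts, and both take read pairs as independent. Blocks are means over pairs. Block 5 of the Kcnj2 side holds 40 kb, and a map position in Mb is the start of its bin. Sequence was matched by fitting a mirror or shift to the bin coverage. The InvIntra mirror lay 2 bins from that of InvC. Kcnj2 and Sox9 were placed from general knowledge of mm9. Blocks named singly were the 3 highest and 3 lowest per comparison with at least 100 contacts and the 4 corners, and bins the 3 highest stripe values. The members, lists and alternatives were chosen with earlier results of these data known. The calculations were checked on simulated maps. They ran in Python 3.11.15 with scipy 1.17.1, numpy 2.4.6, pandas 2.3.3 and, for figures, matplotlib 3.10.9. Alternatives changed values, expectation, bins, block size, fold, comparator, depth and matching.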

Additional observations from a re-analysis of the deposited data

How the results depend on the processing

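No paired analysis was possible because each genotype had 1 library. Of 132 alternative values, 79 stayed close to the reported value, 53 moved further, and none turned a direction. The ratios to InvIntra along the Sox9 side by sequence, which turned round for the libraries with the uninverted order, were not among these values. Close means inside the interval of the reported value, inside the range of the 4 deletion libraries for shares of excess, and within 1.5 times for called blocks, compared as shares of all blocks where their number differs. The causes of the moves were not tested. For the mean over InvIntra the median of the deletion libraries (1.52) was 1.61 with raw counts, 1.61 with thinned raw counts, 1.55 with the flank expectation, 1.77 with medians over pairs, 1.56 by sequence, 1.47 with 20 kb taken off the distance and 1.28 against BorKnockIn. BorKnockIn was 1.28 with raw and with thinned counts, 1.16 with the flank expectation, 1.33 with medians, 1.20 by sequence and 1.14 with 20 kb taken off. The map of BorKnockIn already held the Sox9-side sequence 20 kb nearer, so 1.14 does not correct for absent sequence. InvC∆Bor was 1.74 with raw and thinned counts, 1.90 with medians, 1.74 by sequence and 1.40 against BorKnockIn. InvC was 1.80 with raw and thinned counts, 1.97 with medians, 1.91 by sequence and 1.49 against BorKnockIn. Calls at 2-fold numbered 18 in the deletion libraries (median, 37.5 at 1.5-fold), 27 in InvC∆Bor, 31 in InvC and 5 in BorKnockIn. Blocks of 50 and 200 kb gave 138.5 of 216 and 12 of 18 in the deletion libraries, and 45 of 216 and 3 of 18 in BorKnockIn. BorKnockIn, with 12 at 1.5-fold, had 6 with raw counts, 25 of 55 by sequence and 28 with the lower fold tried. In the deletion libraries the boundary corner (3.58) was 3.43 with thinned counts and 3.03 with 20 kb taken off, and with the flank expectation the boundary with Sox9 end corner was 1.18 (1.03 reported) and the far corner 1.56 (1.36 reported). Their shares of excess under 300 kb, from 300 to 800 kb and beyond were 12.2%, 54.9% and 33.0% against BorKnockIn, and 19.3%, 46.6% and 34.4% with the flank expectation, while leaving out low-coverage bins gave 22.9% under 300 kb. The stripe of InvC∆Bor was 1.66 with raw counts and 1.24 with 3 neighbours on either side, and that of InvC 1.43 with raw counts. Block correlations by sequence were -0.101 in InvC∆Bor, -0.121 in InvC and -0.428 in InvIntra with raw counts. InvC∆Bor over InvC was 0.964 with raw counts, 0.963 thinned and 0.966 with medians. The comparison with 10 kb stripe values in raw counts was added after seeing the data. Depth limited the far corners, where single blocks held down to 597 contacts, and no spread between embryos could be measured.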
